A study of Mus musculus with 4 samples.

Results

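The first day with M-CSF and RANKL was described by setting the array of mouse bone marrow cultures on day 5 against the array on day 4, 2 of the 4 arrays of an osteoclast time course. The marrow donors were 12-week-old female C57Bl/6J mice, and the cells were cultured in alpha-MEM with 10% fetal bovine serum and 10 nM vitamin D3. The day 4 cells had spent 3 days in that medium with neither cytokine. For the day 5 cells, 20 ng/ml M-CSF and 40 ng/ml RANKL had been present as well since the end of the third day, by the study's design text. The label of the day 5 sample names 4 days of differentiation and all 3 agents, with no mention of the days without M-CSF and RANKL. Read by itself it would give the cytokines 4 days. The design text is followed here, so the 4 days are taken as the whole time in culture and the time with M-CSF and RANKL as about 1 day. Vitamin D3 and serum were thus shared by both groups. The day 1 array (cells at extraction) and the day 7 array (the same cytokines, 6 days by its label) are used for context. Each day is 1 array. Nothing in the labels tells if 1 culture gave all samples, or how many mice each one came from. No array on day 5 lacked M-CSF and RANKL, so the effect of the cytokines and that of another day in culture cannot be told apart.

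All annotated genes were taken. Of 18194 genes named by a probe set of their own, 11805 had a signal above the floor on day 4, day 5 or both. The floor, 32.4 signal units, is the median of all values on the 4 arrays, and signals under it were raised to it before log2 differences were taken. These 11805 genes are called measured here. A difference of at least 2-fold is called higher or lower. That is a threshold of size, since 1 array a group allows no test. A gene above the floor on 1 of the 2 days has a difference that is only a bound, written as at least N-fold. Where 4 signals of a gene follow each other, they are those of days 1, 4, 5 and 7 in that order. Signals of different probe sets are not on a common scale, so they are compared between days within a gene. Where a list of cell markers is given with the sum of its signals, a few bright probe sets can carry that sum, and it stands beside the members' own differences.

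Osteoclasts are multinucleated cells that resorb bone and form by fusion of precursors of the monocyte and macrophage lineage. M-CSF, through its receptor Csf1r, keeps these precursors alive and dividing, and RANKL, through its receptor RANK, drives them towards the osteoclast by way of NF-kappaB, AP-1 and the factor Nfatc1. RANKL can also be made by stromal cells exposed to vitamin D3, and marrow that was not sorted holds such cells together with blood cells of every lineage.

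On day 5, 239 genes were at least 2-fold higher, 2.02% of those measured, and 477 were lower, 4.04%. Both directions together made up 6.07%. The shares of 2.02% and 4.04% are the background for the counts of each list below. The counts follow the floor: with a floor at the 25th percentile of all values they were 746 and 970, and at the 75th percentile 106 and 149. The median log2 difference of all measured genes was 0.058, and 6581 of them (55.7%) lay above 0. A signal above the floor on day 4 and on day 5 was found for 10936 genes, and 80.5% of these lay within 1.5-fold. Among the higher genes 15 reached 4-fold and 3 reached 8-fold, and among the lower ones 55 reached 4-fold and 2 reached 8-fold. Chemokine and osteoclast genes were among those farthest above the diagonal in the plot of day 5 against day 4, and genes of antigen presentation and of platelets among those farthest below it.

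**Figure D1:**
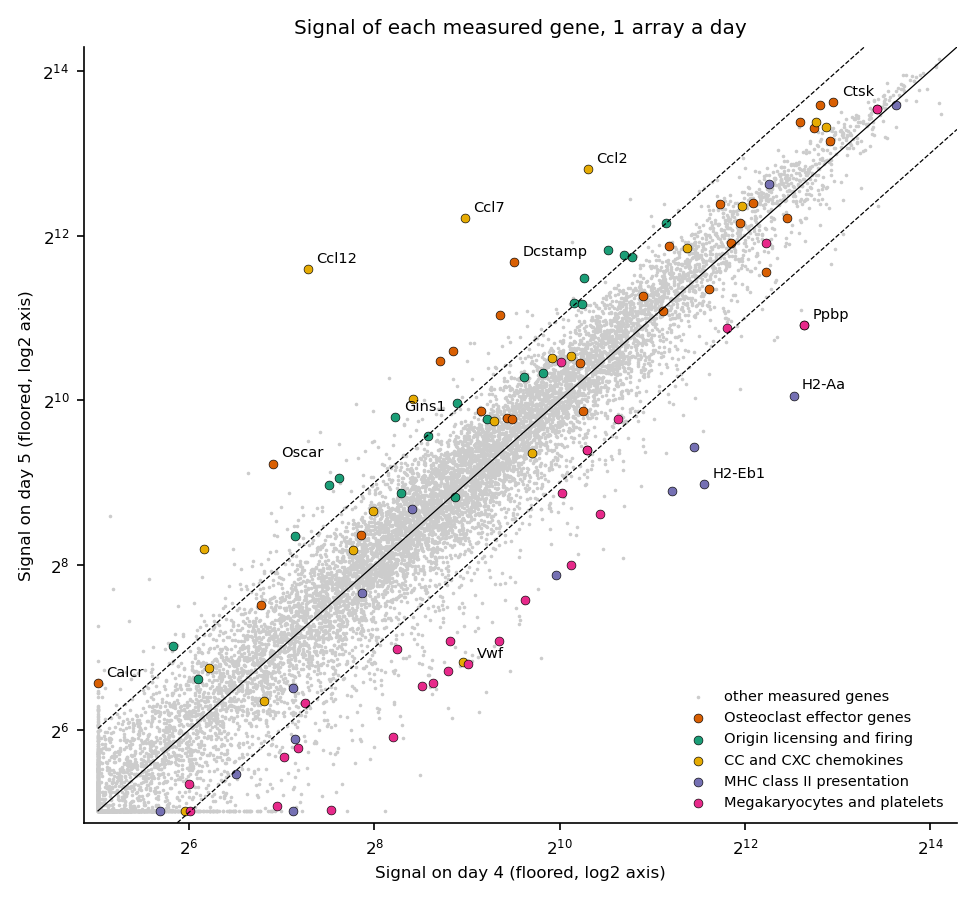
Signal of each measured gene on day 4 (x axis) and day 5 (y axis), both floored and on log2 axes, with 1 array a day. The solid line marks equal signals and the dashed lines 2-fold. The chemokine genes Ccl12, Ccl7 and Ccl2 lie far above the upper dashed line, and most genes of MHC class II and of platelets lie below the lower one.

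The labels give the cell type of all 4 samples as primary osteoclast. Of the 29 osteoclast effector genes on the array 28 were above the floor on day 4 and all 29 on day 5, against 62.6% and 62.3% of all 18194 genes. Markers of some other cells on the array were above it on day 5 as well: 25 of 26 for platelets, 19 of 20 for mature neutrophils, 17 of 23 for mature B and plasma cells and 26 of 30 for stromal matrix. Other lists fell short of the 62.3% of all genes. They included T and NK cells (4 of 20), erythroid cells (5 of 18), eosinophils, basophils and mast cells (6 of 19) and B cell precursors (5 of 13). The floor is the median of all values and not a limit of detection. In bulk samples, fewer cells of a type and less RNA per cell cannot be told apart.

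The receptors that receive the 2 cytokines differed little. Csf1r, the M-CSF receptor, had signals of 11964, 11068, 11752 and 11651 on days 1, 4, 5 and 7, a log2 difference of 0.09 from day 4 to day 5 (-0.02 after quantile normalization and -0.21 as the mean over its probe sets). Its other probe sets gave -0.58 to -0.12. Tnfrsf11a, which encodes RANK, had signals of 147, 323, 451 and 415. Its difference was 0.48, and its other probe set gave 1.02, so this gene passes 2-fold by 1 probe set and not by the one that represents it. Of 26 measured genes of the RANK and NF-kappaB pathway 1 was higher and 0 were lower (median -0.002). The higher one was Traf1, a TNF receptor adaptor that NF-kappaB itself induces (298 on day 4 and 602 on day 5, 2.02-fold higher). Traf6, the adaptor that RANK uses, differed by 0.32, Traf2 by 0.33 and Traf5 by -0.63. The subunit genes Relb, Rela and Nfkb2 differed by -0.44, -0.17 and -0.12.

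Of 26 measured genes of the M-CSF receptor pathway none reached 2-fold, and the median was -0.22. The tyrosine kinase genes Syk (from 2460.1 to 1333, -0.88) and Fgr (from 861 to 511, -0.75) had the largest differences, both negative, while Src, a kinase needed for the resorbing membrane of osteoclasts, differed by 0.51. The genes of the growth factors in the dish were also measured. Csf1, which encodes M-CSF, had 2228 on day 4 and 2195 on day 5, a difference of -0.02. Tnfsf11, which encodes RANKL and is induced by vitamin D3 in stromal cells, had signals of 82.8, 593, 836 and 207 on days 1, 4, 5 and 7, a difference of 0.50. The gene for IL-34, the other ligand of Csf1r, went from 34.4 to 49.1 (0.51).

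Among 25 measured genes of ERK feedback and the immediate early response 1 was higher and 2 were lower, with a median of 0.14. Dusp4, a phosphatase that removes phosphate from ERK, was 3.62-fold higher, with a value under the floor, 197, 712 and 956 on days 1, 4, 5 and 7. Dusp5 (0.65), Dusp6 (0.46), Spred1 (0.85) and Spry2 (0.65), all brakes on ERK signalling, stayed under 2-fold. The 2 lower genes were the stress factor Atf3 (1440.1 on day 4 and 620.5 on day 5) and the zinc finger factor Egr2 (541 on day 4 and 239.8 on day 5), 2.32-fold lower and 2.26-fold lower. Of 11 measured genes of the SOCS and STAT group none passed, with a median of -0.09. Socs3, an inhibitor of JAK kinases, differed by 0.58 and the kinase gene Pim1 by -0.83.

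The largest positive difference of all was that of a chemokine gene, Ccl12. There were 5 higher and 2 lower genes among 21 measured CC and CXC chemokines (median 0.46). Ccl12, a ligand of the monocyte receptor CCR2, had signals of 67.2, 156, 3098 and 5507 on days 1, 4, 5 and 7 and was 19.8-fold higher on day 5. Ccl7, another CCR2 ligand, had 168, 505, 4728 and 5911 and was 9.35-fold higher. For Ccl2, the main chemoattractant of monocytes, the signals were 816, 1266, 7179.9 and 9525, and it was 5.67-fold higher. All 3 were highest on day 7, and for each the step between days 4 and 5 was the largest on the log2 scale of the 3 steps between neighbouring arrays. Each was read by 1 probe set.

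Ccl8 completed a run of 4 neighbouring measured genes on chromosome 11, Ccl2, Ccl7, Ccl12 and Ccl8, that were all higher. Its signals were 63, 71.6, 294 and 1210.5 on days 1, 4, 5 and 7, and it was 4.11-fold higher. The fifth higher chemokine gene, Cxcl3, attracts neutrophils and had a different course, with 369, 341, 1037 and a value under the floor. The other neutrophil chemokine genes Cxcl1 (0.67), Cxcl5 (0.48) and Cxcl2 (0.46) stayed under 2-fold. The 2 lower ones were Ccl5, made by T cells and platelets (1169, 496, 114 and 69.2, 4.37-fold lower), and Ppbp, a platelet granule chemokine (4809, 6359.7, 1933 and 79.3, 3.29-fold lower). Pf4, another platelet granule chemokine, differed by 0.11, with signals of 10990.2 on day 4 and 11871 on day 5.

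Many receptors for such signals were lower. Of 23 measured receptors for chemoattractants and lipid mediators 0 were higher and 11 were lower, with a median of -0.86. With the floor at the 75th percentile 3 were lower and the median was -0.26. Cxcr4, which holds blood cells in the marrow by binding Cxcl12, had signals of 1949.7, 890.2, 118 and 39.9 on days 1, 4, 5 and 7 and was 7.57-fold lower. Cxcl12 itself differed by 0.39 (4007 on day 4 and 5264 on day 5). Cxcr2, the neutrophil receptor for Cxcl1 and its relatives, went from 229.6 to 59.4, and Ltb4r1, the receptor for leukotriene B4, went from 209 to 71.7. Both are neutrophil markers too, and 18 of the 29 genes on the neutrophil lists were lower (described with the other marrow cells). The part of the cell mixture in these differences was not tested. Ccrl2 (2.89-fold lower), the lymphocyte receptor S1pr4 (2.86-fold lower), the prostaglandin E2 receptor Ptger2 (2.76-fold lower) and the chemerin receptor Cmklr1 (2.63-fold lower) were lower as well.

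Of the CC receptors named here, Ccr1 lay above 0 and the others below it. Ccr2, the receptor of the chemokines that were so much higher, had signals of 3887, 121, 81.6 and a value under the floor on days 1, 4, 5 and 7, a difference of -0.57. Ccr1, which binds Ccl7 and is present on osteoclast precursors, had 2057, 1492, 2451 and 2599.8, a difference of 0.72. Ccr3 differed by -0.34, and Ccr9 and Ccr7, receptors of lymphocytes and dendritic cells, were at least 3.03-fold lower and at least 2.25-fold lower. The fractalkine receptor Cx3cr1, a monocyte marker, went from 176 to 81.1 and was 2.17-fold lower.

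Some genes of the mature osteoclast were higher on day 5, and others were high on day 4 already. Of 29 measured osteoclast effector genes 6 were higher and 0 were lower, and the median was 0.51. Oscar, a receptor that binds collagen and co-stimulates osteoclast formation, had a value under the floor, 119.8, 601 and 1590.4 on days 1, 4, 5 and 7 and was 5.02-fold higher, and its other probe set gave a log2 difference of 2.15. The fusion genes Dcstamp and Ocstamp encode membrane proteins needed for precursors to merge. Dcstamp had a value under the floor, 730.2, 3266 and 4480.4 and was 4.47-fold higher, and Ocstamp had a value under the floor, 419, 1425 and 2108 and was 3.4-fold higher. Both were under the floor in fresh marrow and had most of their day 7 signal by day 5.

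Slc9b2, a sodium and proton exchanger of the osteoclast, had signals of 37.5, 463, 1550.2 and 3083 on days 1, 4, 5 and 7, 3.35-fold higher. Car2, the carbonic anhydrase that supplies protons for acid secretion, had 7267, 656, 2107 and 2049 and was 3.21-fold higher. The high day 1 signal of Car2 was that of fresh marrow, in which red cells carry this enzyme too. Calcr, the calcitonin receptor and a late osteoclast marker, was under the floor on days 1 and 4 and reached 95.1 on day 5 and 398 on day 7, at least 2.93-fold higher on day 5.

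The enzyme genes Ctsk, Acp5 and Mmp9 were high on day 4 already and stayed under 2-fold. Ctsk, the main collagenase of the resorption space, had 568, 7934, 12602 and 13694 on days 1, 4, 5 and 7, a difference of 0.67. Acp5, tartrate-resistant acid phosphatase, had 2604, 6200.2, 10665 and 12208 (0.78), and Mmp9, a gelatinase, had 4173, 7198, 12276 and 13352 (0.77). Other effector genes of the acid machinery also stayed under 2-fold. Atp6v0d2, the osteoclast subunit of the proton pump, differed by 0.06, the pump subunit Tcirg1 by -0.26, the chloride channel gene Clcn7 by 0.23 and the anion exchanger gene Slc4a2 by 0.71. Itgb3 and Itgav encode the chains of the vitronectin receptor by which osteoclasts hold on to bone. The signals of Itgb3 were 1156, 1257, 677 and 610.2 (-0.89) and Itgav differed by 0.65. The other probe set of Itgb3 gave 0.14, the opposite direction, and platelets carry Itgb3 too.

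None of the transcription factors that lead to the osteoclast was higher by 2-fold. This list of 21 measured genes had 0 higher and 1 lower, at a median of 0.19. Nfatc1, the master factor, had 589, 1197, 1658 and 1814 on days 1, 4, 5 and 7, a difference of 0.47, and its other probe sets gave -0.34 to 0.75. Jdp2 (0.71), Ppargc1b (0.68), a coactivator for mitochondrial genes, and the calcineurin regulator Rcan1 (0.63), itself a target of NFAT, had the largest positive differences. Fos, the AP-1 partner, differed by 0.35, and the lineage factors Spi1 and Mitf by 0.24 and -0.01. The lower one was Tfeb, a factor of lysosome genes (299 on day 4 and 132 on day 5, 2.26-fold lower).

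Among 16 measured inhibitors of osteoclast formation 0 were higher and 3 were lower, with a median of -0.19. Irf8, a factor that blocks Nfatc1, had 2440.5, 1915, 925 and 770.4 on days 1, 4, 5 and 7 and was 2.07-fold lower, with -1.47 on the log2 scale for its other probe set. Irf4 had 684, 222, 48.4 and a value under the floor and was 4.59-fold lower, and the inhibitory receptor gene Cd300lf was 2.06-fold lower (679 on day 4 and 329 on day 5). Irf4 is also a gene of B and plasma cells and Irf8 of dendritic cells, whose markers were lower too, and how much of each difference came from those cells was not tested. Other members did not pass. Bcl6 differed by -0.21, Id2 by -0.44 and the Wnt antagonist gene Sfrp1 by 0.77.

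A list of receptors that use ITAM adaptors, the adaptors themselves and Fc receptors lay mostly below 0 (13 of 18), with calls in both directions. It is not limited to receptors that act with RANK. Of 18 measured genes 2 were higher and 4 were lower (median -0.61). Beside Oscar, the higher one was Clec5a, which signals through Tyrobp (1071, 412, 952 and 874 on days 1, 4, 5 and 7, 2.31-fold higher). The adaptor genes themselves, Tyrobp and Fcer1g, differed by -0.09 and -0.06. Trem2, a partner of Tyrobp in osteoclasts, differed by -0.67. The lower members were Trem3 (2.23-fold lower), Fcgr4 (2.2-fold lower), Cd200r4 (2.18-fold lower) and Trem1 (2.06-fold lower), of which Trem1 and Trem3 stand on the neutrophil list as well.

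**Figure D2:**
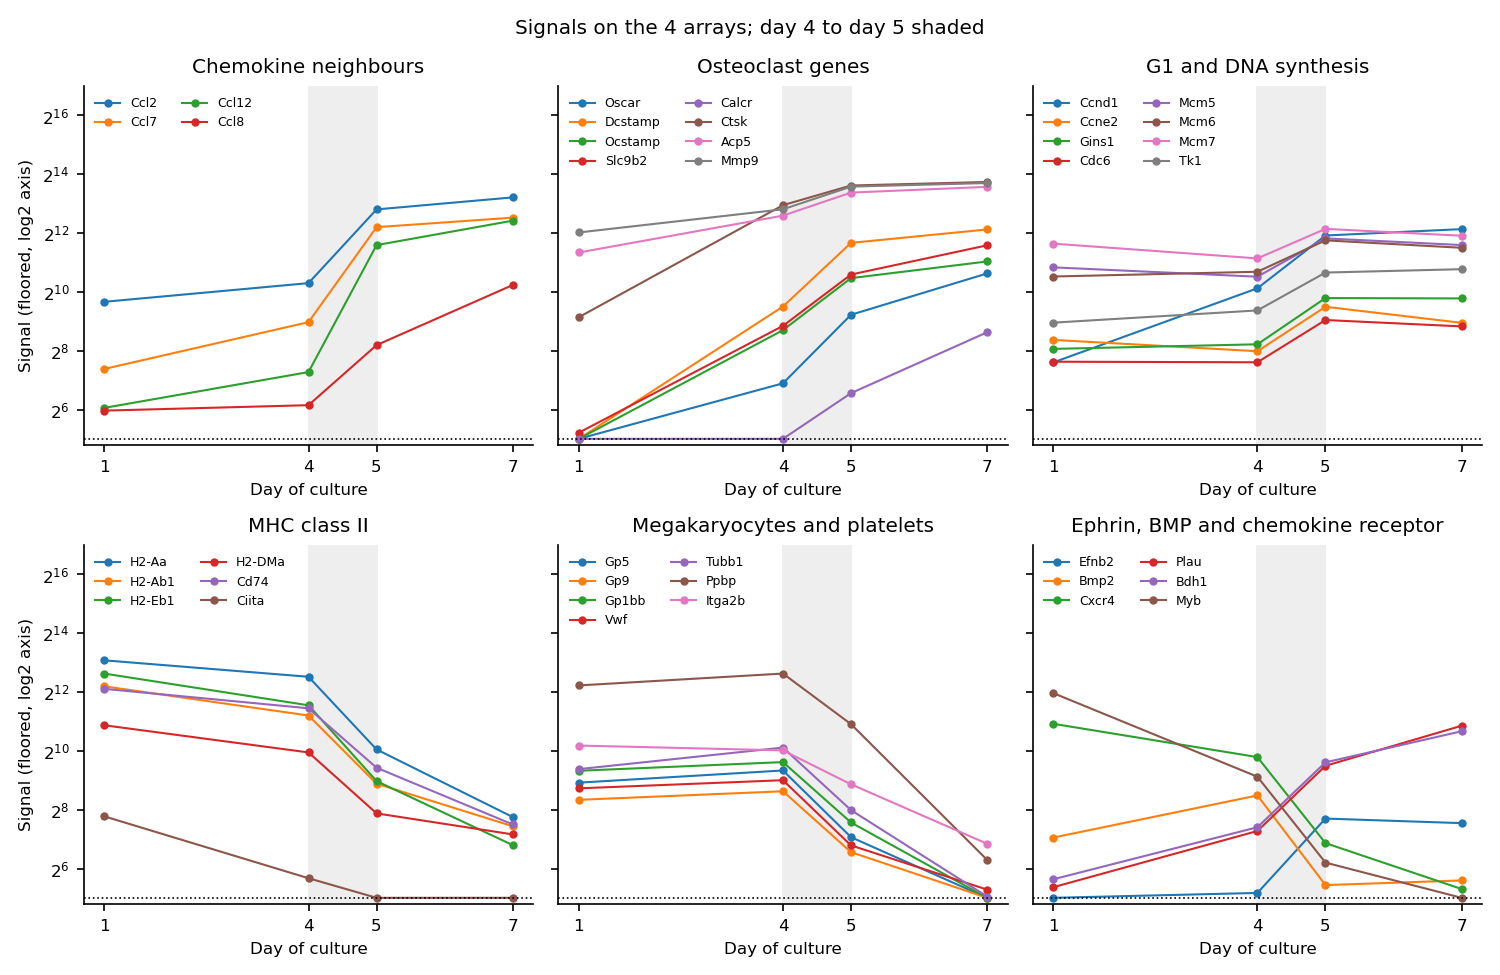
Signals of 39 genes in 6 groups on days 1, 4, 5 and 7 (x axis), floored and on a log2 y axis, with 1 array a day, the interval from day 4 to day 5 shaded and the floor dotted. The chemokine and osteoclast genes are higher at the end of the shaded day than at its start, as are the replication genes. The genes of MHC class II and platelets are lower at its end and lower again on day 7, except Ciita, which is at the floor on days 5 and 7.

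Genes of DNA synthesis, DNA repair and mitosis lay almost all above 0 on day 5. The 5 lists of DNA synthesis and repair held 94 different measured genes, of which 36 were higher (38.3%) and 0 were lower, and 93 of the 94 lay above 0. These 36 were 15.1% of all higher genes. In the list of origin licensing and firing 11 of 20 were higher, with a median of 1.01. It covers the proteins that mark replication origins in G1 and start them in S phase.

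Gins1, a subunit of the GINS complex that joins the helicase, had signals of 269, 300.1, 891 and 883 on days 1, 4, 5 and 7 and was 2.97-fold higher. Of its partner genes Gins2 differed by 1.00, just short of 2-fold, Gins4 by 0.55 and Gins3 by 0.52. Cdc6, which loads the helicase at origins, had 199, 197, 531 and 457 (2.7-fold higher), and Mcm10 had 276, 183, 501 and 405 (2.74-fold higher). In the helicase itself Mcm5 (1835, 1473, 3630.0 and 3103), Mcm6 (1479.7, 1655, 3466 and 2910.1), Mcm4 (1028, 1142, 2316 and 1591) and Mcm7 (3208, 2266, 4541 and 3865) had log2 differences of 1.30, 1.07, 1.02 and 1.00, all past 2-fold. Mcm3 (0.93) and Mcm2 (0.68) stayed under it. All 4 probe sets of Mcm7 passed 2-fold. The exception of the list was Cdc7, the kinase that fires origins, which differed by -0.05, while its activator Dbf4 differed by 0.51.

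At the replication fork 10 of 27 were higher and 0 were lower (median 0.90). Dscc1, which helps to load the sliding clamp, had 138, 128, 418 and 349 on days 1, 4, 5 and 7 and was 3.28-fold higher. Rpa2, of the complex that covers bare DNA strands, was 2.41-fold higher, while its partners Rpa1 and Rpa3 differed by 0.59 and 0.37. The primase gene Prim1 (2.3-fold higher), the flap nuclease gene Fen1 (2.29-fold higher), Timeless (2.22-fold higher), the ligase gene Lig1 (2.15-fold higher) and the polymerase gene Pole (2.15-fold higher) were higher. Pcna, the sliding clamp, differed by 0.43, with signals of 6641 on day 4 and 8934 on day 5.

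Of 21 measured genes of nucleotide synthesis 2 were higher (median 0.64). They were thymidine kinase Tk1 (499, 666, 1624 and 1758 on days 1, 4, 5 and 7, 2.44-fold higher) and Rrm1, a subunit of ribonucleotide reductase (1399, 1110.4, 2296 and 2423, 2.07-fold higher). Rrm2, the other subunit, differed by 0.81, and Upp1, which breaks down uridine and is on no list, was 3.29-fold higher (70.6 on day 4 and 233 on day 5). Of 11 genes of chromatin assembly 5 were higher (median 0.97), among them Chaf1b of the histone chaperone CAF-1 (143, 207, 621 and 921, 3-fold higher), the remodeller gene Hells (2.55-fold higher) and Uhrf1, which keeps DNA methylation in place behind the fork (1017, 833, 2091 and 1374, 2.51-fold higher). In recombination and mismatch repair 8 of 15 were higher (median 1.00), but 4 with 16 added in place of the floor and 3 with the floor at the 75th percentile (median 0.61). Ung, which removes uracil from DNA, had 121, 184, 561 and 407 (3.05-fold higher), and Rad51ap1 had 492, 239.6, 669 and 636 (2.79-fold higher), with all 4 of its probe sets past 2-fold.

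Upstream of S phase, 4 of 20 measured genes of G1 control were higher and 1 was lower (median 0.55), with 14 above 0 and 6 below it. Ccnd1, cyclin D1, which growth factors induce, had signals of 196, 1121, 3885 and 4514 on days 1, 4, 5 and 7 and was 3.46-fold higher, and its 3 probe sets all passed, the other ones with 1.48 and 1.66. Ccnd2 differed by 0.64 and Ccnd3 by -0.60, the opposite direction. The E cyclin genes Ccne2 (333, 255, 726 and 498) and Ccne1 (207, 289, 592 and 432) were 2.84-fold higher and 2.05-fold higher. Cdkn2a, an inhibitor locus that restrains division, was higher too (2.12-fold higher), and the inhibitor gene Cdkn1c was lower (2.13-fold lower, 86.3 on day 4 and 40.5 on day 5).

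The E2F and MYC factors did not pass on the higher side. The 17 measured genes included 0 higher and 1 lower (median 0.12), with 9 above 0 and 8 below it. E2f1 differed by 0.88, E2f7 by 0.82 and E2f8 by 0.75. Myc had 322, 691, 977 and 571 on days 1, 4, 5 and 7, a difference of 0.50. The lower gene was Mxd1, an antagonist of Myc that is also on the neutrophil list (442 on day 4 and 180.3 on day 5, 2.45-fold lower).

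The genes of mitosis were shifted in the same direction. Their median lay above that of nucleotide synthesis (0.64) and below those of the other lists of DNA synthesis and repair. Of 33 measured genes of mitosis and cytokinesis none was at least 2-fold higher or lower, 32 lay above 0, and the median was 0.74. The largest differences were those of the checkpoint gene Mad2l1 (1.00, just short of 2-fold, 868 on day 4 and 1732 on day 5), the kinase gene Aurka (0.98) and Birc5 (0.95). The member below 0 was Foxm1, a transcription factor of mitotic genes (-0.08). Cdk1, the kinase that starts mitosis, had 1325, 1159, 2096 and 2609 on days 1, 4, 5 and 7 (0.86), and its partner Ccnb2 differed by 0.52.

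Promoters of these genes were searched because the S phase and the mitosis genes are known to be read through different short elements, and the sequences let both be seen. The RefSeq table of promoters (GRCm38.p6) gave 250 bases before the gene start for 80 of the 94 genes of DNA synthesis and repair, 27 of the 33 mitosis genes and 9576 measured genes. An octamer of the E2F type (TTTCGCGC, TTTGGCGC, TTTCCCGC or TTTGCCGC, on either strand) was found in 13 of the 80 (16.2%), in 7 of the 28 of them that were higher (25%), in 1 of the 27 mitosis genes (3.7%), in 3.93% of the measured genes and in 2.16% of all 27025 promoters. A hexamer of the CHR type (TTTGAA or TTCGAA, either strand) was found in 12 of the 27 mitosis genes (44.4%), 14 of the 80 (17.5%), 14.6% of the measured genes and 19.6% of all promoters. A match is a description of the letters, not a shown binding site. The 7 higher genes with an E2F octamer were Cdc6, Hells, Mcm5, Mcm6, Mcm7, Orc1 and Uhrf1. Over all higher genes the E2F share was 9.5% (17 of 179) and the CHR share 14.5%. The 2 elements did not part the groups cleanly. The 1 mitosis gene with an E2F octamer was Cdk1, and only its CHR matches are in capitals below. A CHR hexamer was found in 4 of the 28 higher genes of DNA synthesis and repair (14.3%), Mcm7 among them. Below are 100 bases from the E2F octamer genes Mcm5 (chr8:75109310-75109409, plus strand), Mcm6 (chr1:128359706-128359805, minus strand), Cdc6 (chr11:98907963-98908062, plus strand) and Orc1 (chr4:108579354-108579453, plus strand). The mitosis genes Cdk1 (chr10:69352913-69353012, minus strand) and Ccnb2 (chr9:70421672-70421771, minus strand) follow. Each is written 5′ to 3′ on the strand of its gene, with the matched letters in capitals. On Mcm5, 2 overlapping octamers of opposite strands are joined, and the matches on Cdc6 and Orc1 lie on the opposite strand.
Mcm5: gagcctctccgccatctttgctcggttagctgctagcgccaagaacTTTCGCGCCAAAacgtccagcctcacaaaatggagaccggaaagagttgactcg
Mcm6: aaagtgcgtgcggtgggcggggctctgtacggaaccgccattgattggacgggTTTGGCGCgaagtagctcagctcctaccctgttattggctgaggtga
Cdc6: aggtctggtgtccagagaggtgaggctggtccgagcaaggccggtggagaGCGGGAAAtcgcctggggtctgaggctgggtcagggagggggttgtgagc
Orc1: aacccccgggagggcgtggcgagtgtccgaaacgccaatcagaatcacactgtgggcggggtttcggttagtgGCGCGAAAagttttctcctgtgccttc
Cdk1: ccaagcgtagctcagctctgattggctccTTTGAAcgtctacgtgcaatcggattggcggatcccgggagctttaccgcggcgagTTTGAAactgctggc
Ccnb2: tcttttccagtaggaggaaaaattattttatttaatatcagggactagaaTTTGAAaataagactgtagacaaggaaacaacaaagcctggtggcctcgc

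Genes of ribosome biogenesis showed a small shift to higher signals. All 29 measured genes of ribosome biogenesis lay above 0 on day 5, none reached 2-fold, and the median was 0.55, against 0.058 for all measured genes. Rrp1b (0.79), Rrs1 (0.78) and the pseudouridine synthase Dkc1 (0.76) had the largest differences. The cytosolic chaperones (median 0.37), those of the endoplasmic reticulum (0.36), the genes of amino acids and one-carbon units (0.36) and those of the citric acid cycle and mitochondria (0.32) had no member past 2-fold in either direction. Their members lay on both sides of 0, with 17 and 2, 16 and 3, 18 and 6, and 18 and 3 above and below it in that order. The lowest in the first 3 groups were the heat shock gene Hspa1a (-0.87), the stress factor gene Ddit3 (-0.56) and Sesn2 (-0.66). Of the last group Idh3a (0.91) and Ppargc1b, named above, were the largest. The amino acid transporter gene Slc7a5 differed by 0.82 and the mitochondrial folate enzyme gene Mthfd2 by 0.76.

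Most genes of sugar and lipid use stayed under 2-fold. Of 23 measured genes of glycolysis 1 was higher and 2 were lower (median 0.22). The higher one was Pdk1, a kinase that closes the mitochondrial entry of pyruvate (680.3 on day 4 and 1375 on day 5, 2.02-fold higher), and the lower ones were the glucose transporter genes Slc2a3 (1904 on day 4 and 740.2 on day 5, 2.57-fold lower) and Slc2a6 (2.11-fold lower). Among the hypoxia targets, Pdk1 was again the only call, and Vegfa differed by -0.92. In cholesterol synthesis no gene passed, 17 of 20 lay below 0 and the median was -0.27. The exceptions were Mvk (0.52), Fdps (0.26), the target of the bisphosphonate drugs, and Ebp (0.19). Srebf2, which drives the pathway, differed by -0.62.

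Bdh1 stood apart from its own pathway. This mitochondrial enzyme interconverts ketone bodies, and its signals were 50.2, 171, 787 and 1635 on days 1, 4, 5 and 7, 4.6-fold higher on day 5. Of the 15 measured genes of ketone bodies and fatty acid oxidation it was the only call. Oxct1 and Acat1, which act after it when ketone bodies are used, differed by 0.17 and 0.59, and Cpt1a, the gate of fatty acid oxidation, by -0.95.

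**Figure D3:**
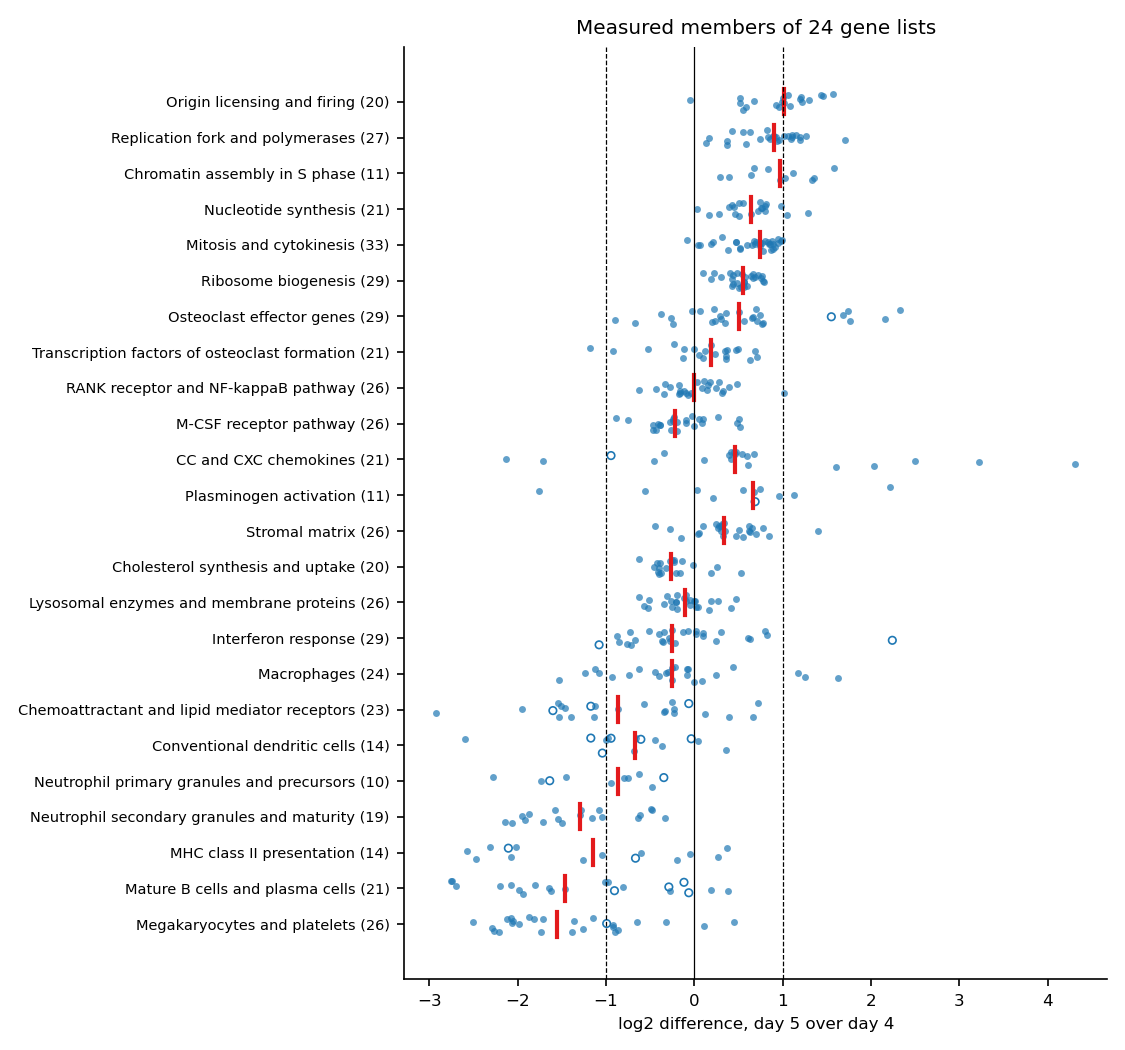
Log2 differences, day 5 over day 4 (x axis), of each measured member (point) of 24 gene lists (y axis, number measured in parentheses), with 1 array a day. Open points are bounds of genes above the floor on 1 day, red bars are list medians and dashed lines mark 2-fold. Origin licensing sits at a median of 1.01 and the platelet list at -1.55, with the RANK and lysosome lists near 0.

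Plau, a gene of proteolysis at the cell surface, was 1 of the 15 higher genes past 4-fold. Of 11 measured genes of plasminogen activation 2 were higher and 1 was lower (median 0.67). Plau, the urokinase plasminogen activator, had 41.7, 156, 725 and 1861 on days 1, 4, 5 and 7 and was 4.64-fold higher, and its other probe set gave 2.28. Its receptor gene Plaur differed by 0.67, with 2185, 909, 1446 and 965. Plat, the tissue plasminogen activator, was 2.19-fold higher (98.4 on day 4 and 216 on day 5), and the coagulation factor gene F10 was 3.38-fold lower (261 on day 4 and 77.3 on day 5). Of 26 metalloproteinase and inhibitor genes 2 were higher, both ADAMTS enzymes that cut proteoglycans or other matrix proteins: Adamts5 (141 on day 4 and 356 on day 5, 2.53-fold higher) and Adamts12 (42.3 on day 4 and 101 on day 5, 2.4-fold higher). The median of that list was 0.37.

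Genes by which osteoclasts and osteoblasts signal to each other differed one by one. Efnb2, an ephrin that osteoclasts display to osteoblasts, had a value under the floor, 36.4, 209.5 and 188 on days 1, 4, 5 and 7 and was 5.76-fold higher. Its day 4 signal lay just above the floor, and its other probe set gave 1.41. Its receptor Ephb4 was under the floor on both days. Bmp2, a bone morphogenetic protein, had the largest negative difference of any gene above the floor on both days, with 134, 361, 43.8 and 48.9 (8.25-fold lower). It was the only call among 28 measured genes of BMP and TGF-beta signalling (median 0.02), where its targets Id1, Id2, Id3 and Id4 differed by 0.31, -0.44, 0.63 and 0.54. In the group of RANKL, vitamin D and coupling factors Cthrc1, a secreted factor of active osteoclasts, was 2.64-fold higher (123 on day 4 and 326 on day 5). The vitamin D receptor gene Vdr differed by -0.52, and Cyp24a1, its classic target, by 0.05.

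In the Wnt and Notch lists 2 of 30 were higher and 1 was lower (median 0.15), against 2.02% and 4.04% of all measured genes. The Notch ligand gene Jag1 (428 on day 4 and 959.7 on day 5, 2.24-fold higher) and the receptor gene Notch3 (2.04-fold higher) were higher. Hey1, a target of Notch, was lower (191 on day 4 and 52.1 on day 5, 3.66-fold lower), and the receptors Notch1 and Notch2 differed by -0.94 and -0.85. Among 29 semaphorins, ephrins and other guidance genes 4 were higher and 1 was lower. Beside Efnb2 these were Sema3e (2.02-fold higher), Sema3f (at least 3.54-fold higher) and Ephb3 (at least 2.14-fold higher), the last 2 under the floor on day 4. Plxnc1, a semaphorin receptor of myeloid cells, was 2.34-fold lower (1303, 1059, 454 and 618 on days 1, 4, 5 and 7), with all its measured probe sets past 2-fold.

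Of 20 measured cytokine genes 1 was higher and 5 were lower (median -0.25), and 1 was lower with the floor at the 75th percentile. Il1b, interleukin 1 beta, had 2846, 383, 102 and 51 on days 1, 4, 5 and 7 and was 3.76-fold lower, while Il1a differed by -0.74 and the natural antagonist Il1rn by 0.51. Ltb (296 on day 4 and 81.2 on day 5, 3.64-fold lower) and Il16 (681 on day 4 and 191 on day 5, 3.57-fold lower), both made by lymphocytes, were lower. Lif, a cytokine of the interleukin 6 family, was the higher one (36.4, 58.6, 131 and 111, 2.23-fold higher), and the gene for its receptor, Lifr, was 2.02-fold higher. Tnf and Il10 differed by -0.01 and -0.05.

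Of 27 measured receptors for interleukins and colony-stimulating factors 1 was higher and 6 were lower (median -0.38). Csf3r, the receptor that neutrophils need, had 4031, 1174, 282 and 68.6 on days 1, 4, 5 and 7 and was 4.17-fold lower. Il10ra (3.06-fold lower), the TNF receptor gene Tnfrsf1b (1933 on day 4 and 666 on day 5, 2.9-fold lower), Il7r (2.4-fold lower), Il6ra (2.12-fold lower) and Il1r2 (2.05-fold lower) were lower as well. The other TNF receptor gene, Tnfrsf1a, differed by -0.25. Among Toll-like receptors and inflammasome genes 2 of 20 were lower, Nod1 (2.1-fold lower) and Tlr2 (2-fold lower), with a median of -0.34. Of 14 measured genes of prostaglandin and leukotriene synthesis 1 was higher and 3 were lower, with a median of -0.37 (-0.96 without the probe sets designed to match several transcripts). The platelet enzyme gene Alox12 (3.72-fold lower), Alox5, which makes leukotrienes (2.38-fold lower), and the prostacyclin synthase gene Ptgis (at least 2.39-fold lower) were lower, and Ptges, which makes prostaglandin E2, was higher (289 on day 4 and 582 on day 5, 2.01-fold higher).

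Of 29 measured interferon genes 1 was higher and 1 was lower, near the 2.02% and 4.04% of all measured genes. Below 0 lay 18 of them, and the median was -0.25. Ifi202b was the higher one, under the floor on day 4 and 153 on day 5 (at least 4.73-fold higher), and Slfn1 was the lower one (at least 2.11-fold lower). MHC class I, which every nucleated cell carries, had no call among 13 measured genes (median -0.24). H2-K1 differed by -0.24 and B2m by -0.03.

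MHC class II is the means by which antigen-presenting cells show peptides to helper T cells, and genes of its chains and of peptide loading were lower. Of 14 measured genes 0 were higher and 8 were lower, with a median of -1.15. That median was -0.71 without the probe sets designed to match several transcripts, and -1.99 with a floor at the 75th percentile. H2-Aa had signals of 8685, 5896, 1066 and 217 on days 1, 4, 5 and 7 (5.53-fold lower), H2-Ab1 had 4708, 2369, 476 and 175 (4.98-fold lower) and H2-Eb1 had 6357, 3014, 506 and 112 (5.95-fold lower). The other probe sets of H2-Aa gave -3.37 to -2.97 and those of H2-Ab1 gave -3.38 to -2.70, further from 0 than the ones that represent them. Cd74, the invariant chain, had 4439, 2808, 693 and 183 (4.05-fold lower). The peptide-loading genes H2-DMa (994 on day 4 and 237 on day 5, 4.2-fold lower) and H2-DMb2 (2.4-fold lower) and their modulators H2-Oa (2.06-fold lower) and H2-Ob (at least 4.3-fold lower) were lower too. H2-Ob, H2-Ab1, H2-Aa and H2-Eb1 were neighbours among the measured genes of chromosome 17.

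The class II activator Ciita had 51.5 on day 4 and was under the floor on day 5, which gives a bound of -0.67 that does not reach 2-fold. The general factors Rfx5 (-0.20), Rfxap (0.27) and Rfxank (-0.61, and 0.22 without the probe sets for several transcripts), and the enzymes Ctss (-0.04) and Ifi30 (0.37), which prepare antigen, did not pass. B cells, dendritic cells and activated macrophages all carry class II. On the same arrays the mature B and plasma cell list had 12 of 21 lower and the 2 dendritic cell lists together 9 of 24, and their part in the class II difference was not tested. Of genes that act beside class II, Cd83 (665, 557, 118 and 113 on days 1, 4, 5 and 7, 4.72-fold lower) and Cd86 (255 on day 4 and 103 on day 5, 2.48-fold lower) were lower, and Tnfsf9 (2.63-fold higher) and Tnfsf4 (2.62-fold higher) were higher.

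Class II promoters share a Y box, a form of the CCAAT element, and the stretches are printed since the 4 chromosome 17 genes were lower together. The octamer CTGATTGG was found, on either strand, in 3 of the 10 class II genes with a promoter in the table (H2-Aa, H2-Eb1 and H2-Oa), in 6.15% of measured genes and in 4.43% of all promoters. It is not particular to genes that were lower. It was also found in 16 of the 80 genes of DNA synthesis and repair (20%) and in 6 of the 27 mitosis genes (22.2%), which lay on the other side of 0. The stretches are H2-Aa (chr17:34287825-34287924, minus strand) and H2-Eb1 (chr17:34305755-34305854, plus strand), 100 bases each and written as above.
H2-Aa: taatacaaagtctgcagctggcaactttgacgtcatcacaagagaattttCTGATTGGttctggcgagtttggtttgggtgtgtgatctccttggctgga
H2-Eb1: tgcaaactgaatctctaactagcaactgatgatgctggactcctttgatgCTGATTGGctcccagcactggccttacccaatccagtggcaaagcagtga

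Markers of other marrow cells were lower in many cases. The 9 lists of neutrophils, eosinophils and mast cells, platelets, B cells, T and NK cells and dendritic cells held 125 different measured genes. Of these 1 was higher and 63 were lower (50.4%, against 4.04% of all measured genes), with a median of -1.002. These 63 were 13.2% of all lower genes. The 9 lists were put together by hand. Among the lists left out, fewer were lower for stem and progenitor cells (4 of 20, median -0.31), erythroid cells (2 of 7, -0.39) and endothelial cells (1 of 13, -0.26). Each of the 9 lists is given with the sum of its signals on all 4 days.

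For platelets and their parent megakaryocytes 17 of 26 were lower, with a median of -1.55 (7 lower and a median of -0.86 with a floor at the 75th percentile). The summed signal was 37864, 38216, 24994 and 16538 on days 1, 4, 5 and 7. Vwf, the von Willebrand factor, had 427, 517, 111 and 39.4 on days 1, 4, 5 and 7 (4.64-fold lower), the surface glycoprotein gene Gp5 had 488, 649.8, 135 and a value under the floor (4.81-fold lower) and the platelet tubulin gene Tubb1 had 671, 1114, 255 and 33.5 (4.36-fold lower). Itga2b, the platelet fibrinogen receptor, went from 1042 to 469 (2.22-fold lower), and the lineage factors Nfe2 and Gata1 were 3.34-fold lower and 2.56-fold lower. F2r, a thrombin receptor of many cells, differed by 0.45.

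For neutrophils 4 of 10 genes of primary granules and precursors and 14 of 19 of secondary granules and maturity were lower, with medians of -0.87 and -1.29, and all 29 lay below 0. With a floor at the 75th percentile 8 of the latter list were lower. The summed signals were 33229, 8493, 4309.5 and 2898 on days 1, 4, 5 and 7 and 135039, 78157, 43679 and 7009.6 on days 1, 4, 5 and 7. Mpo, myeloperoxidase, had 9325, 1418, 293 and 57.4 on days 1, 4, 5 and 7 (4.84-fold lower), and Elane, neutrophil elastase, went from 155 to 46.3 (3.34-fold lower). The mature genes Chil1 (3469, 533, 121 and a value under the floor, 4.42-fold lower), Padi4 (3.79-fold lower) and Ltf (5102 on day 4 and 1705 on day 5, 2.99-fold lower) were lower, while S100a9 and S100a8, the most abundant of neutrophil proteins, differed by -0.63 and -0.49, with 21542, 17465, 12457 and 2079.7 for S100a8.

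For B cells 3 of 10 precursor genes and 12 of 21 genes of mature B and plasma cells were lower (medians -0.58 and -1.46, the latter -0.91 with 5 lower at a floor of the 75th percentile). The precursor list had 9 lower and a median of -1.13 with the floor at the 25th percentile. The summed signals were 7938, 6339, 3566 and 3457 on days 1, 4, 5 and 7 and 24672, 12976, 6829.7 and 3754 on days 1, 4, 5 and 7. Ms4a1, which encodes CD20, had 1433, 705, 105 and a value under the floor on days 1, 4, 5 and 7 (6.73-fold lower), and Cd79b, a chain of the B cell receptor, had 1864, 785, 186 and 69.6 (4.21-fold lower). The factors Spib (6.71-fold lower) and Pou2af1 (6.49-fold lower), and Rag1, which cuts antigen receptor genes in precursors (945, 249, 50 and a value under the floor, 4.97-fold lower), were lower. Bach2, another B cell factor, was 4.5-fold lower, but its other probe sets gave -2.12 to 0.06. Ebf1, which is also found in stroma, differed by -0.05.

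Of the dendritic cell genes 4 of 14 conventional and 5 of 10 plasmacytoid ones were lower (medians -0.67 and -1.12). Some of these calls are shared with other lists: Spib is also on the mature B cell list, and Clec10a and Mgl2 are also on that of alternative activation. Clec10a, a lectin of dendritic cells and macrophages, had 716, 1640.3, 271 and 1326 on days 1, 4, 5 and 7 and was 6.05-fold lower. It was high again on day 7. The plasmacytoid list had 1 lower and a median of -0.33 with a floor at the 75th percentile. The summed signals were 13298, 17402, 15877 and 14667 on days 1, 4, 5 and 7 and 8979, 4048, 3954 and 3822 on days 1, 4, 5 and 7. Of the conventional list 14 genes were above the floor on day 4 and 9 on day 5. Its defining genes Flt3 (33.2 on day 4 and a value under the floor on day 5) and Batf3 (-0.37) did not pass, and the cystatin gene Cst3 differed by 0.04. The conventional markers Zbtb46, Xcr1 and Itgae were at the floor on both days. Siglech, a plasmacytoid marker, went from 87.3 to 35.1 (2.49-fold lower).

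The smaller groups had shares of lower genes above the 4.04% of all measured genes. Of 10 genes of eosinophils, basophils and mast cells 3 were lower, Hdc (3.55-fold lower), Prg2 (3.33-fold lower) and Kit (2.47-fold lower), with summed signals of 17286, 2245, 1302 and 307 on days 1, 4, 5 and 7. With the floor at the 25th percentile 8 were lower. Of 7 T and NK cell genes 2 were lower and 1 was higher, and 5 were above the floor on day 4 and 4 on day 5. Their summed signals were 2541, 747, 346 and 234 on days 1, 4, 5 and 7, of which Ccl5, described above as a lower chemokine gene, gave the most on days 4 and 5. The other 6 were under 100 signal units on both days. Klrd1 was at least 2.56-fold lower, and Thy1, which stromal cells carry too, was the higher one (at least 2.34-fold higher). Of 18 erythroid genes on the array 7 were measured, and 2 of these were lower, both as bounds. All 7 were above the floor on day 4 and 5 on day 5. Hba-a1, Alas2, Slc4a1 and Klf1 were among those at the floor on both days, so the list says little about red cells. The urea transporter gene Slc14a1 had 277 on day 4 and was under the floor on day 5 (at least 8.53-fold lower), and Hemgn was at least 2.67-fold lower.

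Among stem and progenitor genes 4 of 20 were lower (median -0.31). Myb, which keeps blood progenitors immature, had 4014, 561, 74.3 and a value under the floor on days 1, 4, 5 and 7 (7.55-fold lower), and its other probe set gave -2.95. Bex1 had 40, 444, 77.3 and 48 (5.74-fold lower), a peak on day 4. Kit and Ikzf2 (2.07-fold lower) were the other calls, while Cd34 and Hoxa9 differed by -0.07 and 0.01. Of 30 myeloid and lymphoid transcription factors 7 were lower and 0 higher (median -0.44), and the calls were Spib, Irf4, Bach2, Irf8, Gfi1 (at least 3.11-fold lower), Bcl11a (at least 3.03-fold lower) and Ikzf3 (at least 2.55-fold lower).

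**Figure D4:**
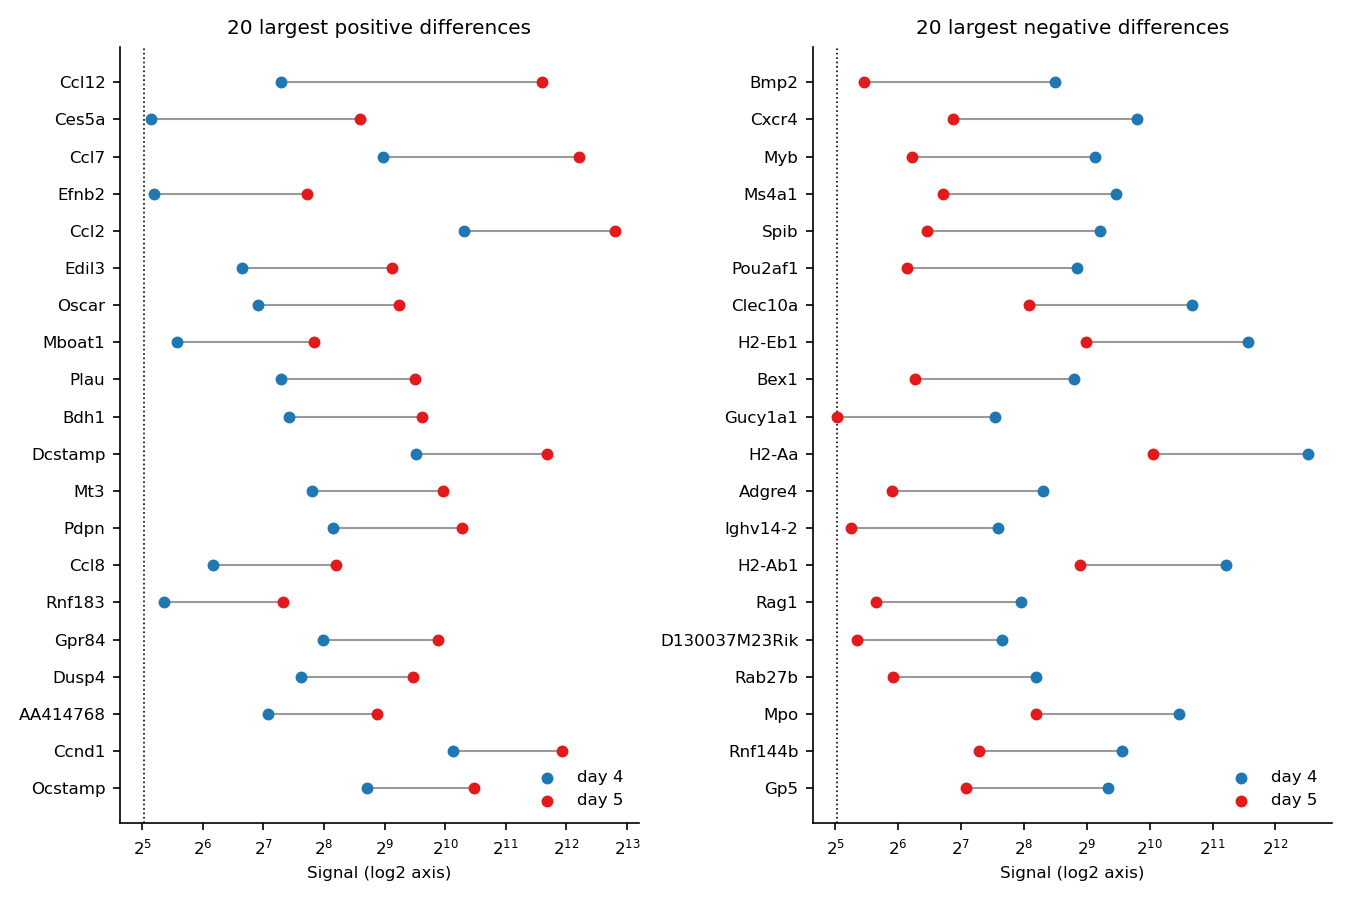
Signals on day 4 (blue) and day 5 (red) of the 20 genes with the largest positive (left) and negative (right) log2 differences among genes above the floor on both days, on a log2 x axis, with 1 array a day and the floor dotted. Ccl12 spans 156 to 3098 on the left, and Bmp2 spans 361 to 43.8 on the right.

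Genes of monocytes and macrophages, the lineage from which osteoclasts form, lay mostly below 0, with calls in both directions among the macrophage genes. Below 0 were 10 of 15 monocyte genes and 18 of 24 macrophage genes, against 44.3% of all measured genes. Of 15 monocyte genes 3 were lower and 0 higher (median -0.54), and the calls were Cd177, Cx3cr1 and Chil3 (8521 on day 4 and 4147 on day 5, 2.05-fold lower). In the list of 24 macrophage genes there were 3 higher and 4 lower ones (median -0.25). Folr2, a folate receptor of resident macrophages, had 269, 538, 1663 and 4094 on days 1, 4, 5 and 7 (3.09-fold higher), the scavenger receptor gene Msr1 was 2.39-fold higher (2230.4 on day 4 and 5328 on day 5) and the integrin gene Itgam was 2.25-fold higher (598 on day 4 and 1345 on day 5). The lower ones were Spic, a factor of iron-recycling macrophages (515, 631, 219 and 93.9, 2.88-fold lower), the receptors for dying cells Mertk (2.35-fold lower) and Axl (2.11-fold lower), and the iron exporter gene Slc40a1 (2.18-fold lower). Adgre1, which encodes F4/80, differed by -0.62 and Cd68 by -0.07.

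Genes linked to alternative activation lay on both sides of 0, 7 above and 7 below, with 1 of 14 higher and 5 lower (median -0.02). Arg1, arginase, was higher (284, 264, 693 and 52.6 on days 1, 4, 5 and 7, 2.62-fold higher). Retnla (at least 4.59-fold lower), Mgl2 (2-fold lower), Clec10a, Egr2 and Chil3 were lower. Of the 26 lysosomal genes on the list none was past 2-fold, 18 lay below 0 and the median was -0.11. They ranged from Scarb2 (-0.63) to Ctsl (0.47). Without the probe sets designed to match several transcripts, Ctsl passed at 1.91 and Mcoln1 at -1.95. The lysosomal enzyme gene Arsb, which is not on that list, was higher and is given below with the unlisted genes.

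Most stromal genes lay above 0. The 2 stromal lists held 48 different measured genes, of which 2 were higher and 1 was lower and 44 lay above 0. The summed signal of the 26 matrix genes was 5177, 52251, 70438 and 36103 on days 1, 4, 5 and 7, and their median was 0.33. Fbln2, a matrix fibulin, was 2.63-fold higher (a value under the floor, 319, 839 and 213 on days 1, 4, 5 and 7), and the collagen genes Col1a1, Col3a1 and Col5a1 differed by 0.70, 0.65 and 0.84. Cd248, a marker of perivascular and mesenchymal cells, was at least 3.02-fold higher, from a day 4 signal under the floor. Vcam1, which holds blood cells to stroma and is also made by marrow macrophages, was the lower one (2341, 3129, 1283 and 632, 2.44-fold lower). The contractile genes had a median of 0.40 with no call, and the adipocyte list a median of -0.22 with none.

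Of the metallothioneins, which bind zinc and copper, Mt3 and Mt2 were higher. Mt3 had a value under the floor, 223, 994 and 2041 on days 1, 4, 5 and 7 (4.46-fold higher) and Mt2 had 239.5, 698, 1748 and 2676 (2.5-fold higher), while Mt1 differed by 0.39 (by -0.03 without the probe sets designed to match several transcripts). Of 17 clock genes 0 were higher and 2 were lower (median -0.45). Dbp, an output gene of the clock, had 249.6, 533, 115 and 377 (4.64-fold lower), and Per2, Arntl and Per1 differed by -0.96, -0.75 and -0.63. The sources used here give no hour of sampling. Lists of stress and survival had 1 call each, all lower, which is near the 4.04% of lower genes among all measured ones. Of 22 antioxidant genes 1 was lower, Gpx3 (952 on day 4 and 430.2 on day 5, 2.21-fold lower); of 16 genes of the BCL2 family 1 was lower, Bmf, which promotes cell death (2.26-fold lower); and of 19 p53 targets 1 was lower, Trp53inp1 (2.07-fold lower).

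Many of the genes past 2-fold stood on none of the 72 lists, 156 of the higher and 345 of the lower ones. The largest of them above the floor on both days included Ces5a, an esterase (127, 35.4, 388 and 150.3 on days 1, 4, 5 and 7, 11-fold higher), whose day 4 signal lay just above the floor. It was read by a probe set designed to match several transcripts, and no other probe set of Ces5a was above the floor on both days. Edil3, a secreted integrin ligand, had a value under the floor, 99.6, 556 and 699 (5.59-fold higher). Mboat1, a lysophospholipid acyltransferase, had 96.3, 47.4, 228 and 206 (4.82-fold higher), but only 0.46 on the log2 scale without the probe sets designed to match several transcripts. Pdpn, podoplanin, had 70.8, 285, 1237 and 613 (4.34-fold higher), with its highest signal on day 5. Gpr84, a receptor for medium-chain fatty acids on myeloid cells, had 506, 254, 939 and 499.9 (3.7-fold higher), and Kcnn4, a calcium-activated potassium channel, had 511, 737, 2129.8 and 2528 (2.89-fold higher).

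Arsb, a lysosomal sulfatase, was 3.2-fold higher (1737, 1735, 5555 and 6909 on days 1, 4, 5 and 7), and Scin, an actin-severing protein, was 3.16-fold higher (54.7, 525, 1656 and 1978). Ch25h, which makes 25-hydroxycholesterol, was 2.88-fold higher (46.6, 251, 722 and 991). Dab2, an endocytic adaptor, was 2.05-fold higher with all 4 probe sets past 2-fold (536, 2905, 5967 and 7525). On the lower side Adgre4, a receptor of monocytes and macrophages, had 2207, 317, 59.8 and a value under the floor (5.3-fold lower), and Entpd1, the ectonucleotidase CD39, had 258, 487, 109.7 and 134 (4.44-fold lower). Sorl1, a sorting receptor, went from 1917 to 699.9 (2.74-fold lower), Cd24a, a surface protein of immature blood cells, had 11433, 3948, 1123 and 252 (3.51-fold lower), and Rgs2, which damps signals of G-protein receptors, had 3239, 1233, 551 and 906 (2.24-fold lower); in each of these 3 all measured probe sets passed.

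Of the 239 higher genes 29 were under the floor on day 4, and of the 477 lower ones 73 were under it on day 5. Beside those named above, the former with the highest day 5 signal included Nppc, C-type natriuretic peptide (96.9, at least 2.99-fold higher), and Cyb561 (75.9, at least 2.34-fold higher). The latter with the highest day 4 signal included Dnah2 (208, at least 6.42-fold lower), Gpr162 (139, at least 4.27-fold lower), the thromboxane receptor gene Tbxa2r (119, at least 3.67-fold lower) and the platelet granule gene Slc35d3 (128, at least 3.94-fold lower). All of these signals lie within a few-fold of the floor.

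How well probe sets of 1 gene agreed was measured on the same arrays. The other probe sets of higher genes, where above the floor on both days, had the same direction in 101 of 105 cases and passed 2-fold in 47. For lower genes the counts were 159 and 91 of 170. Across the 5060 genes with several such probe sets the pooled SD of the log2 difference within a gene was 0.29, and 9 spiked controls varied between the 2 arrays with an SD of 0.09. Neither value covers the spread between cultures. Near the threshold, 76 genes were 1.9 to 2-fold higher and 52 were 2 to 2.1-fold higher, and 85 and 54 were so on the lower side, so single genes there could as well have been counted otherwise. Among the named genes past 2-fold, another probe set had the opposite sign for Bach2, described above, for Abca9 (4.7-fold lower, the other probe set 0.02) and for Btbd11 (2.88-fold higher, the others -0.26 to 1.30).

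Some calls hung on how a gene was read. With the mean over probe sets, the log2 difference came under 2-fold for Traf1 (0.69), Jag1 (0.73), Lifr (0.72), Ptges (0.72), Pdk1 (0.80), Adamts5 (0.96), Mcm4 (0.95), Btbd11 (0.86), Trem1 (-0.53), Il6ra (-0.78), Vcam1 (-0.86) and Tnfrsf1b (-0.94). Quantile normalization took Mcm7 (0.87), Mcm6 (0.93), Mcm4 (0.93), Dab2 (0.89), Rrm1 (0.95), H2-Oa (-0.93), Ikzf2 (-0.94), Cdkn1c (-0.97) and Mgl2 (-0.90) under it, all of them near 2-fold to begin with. Adding 16 in place of the floor did so for some others, among them Thy1 (0.93), Cdkn2a (0.98), Lif (0.98), Notch3 (0.93), Sema3e (0.95) and Tlr2 (-0.98). Their directions stayed as given.

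**Figure D5:**
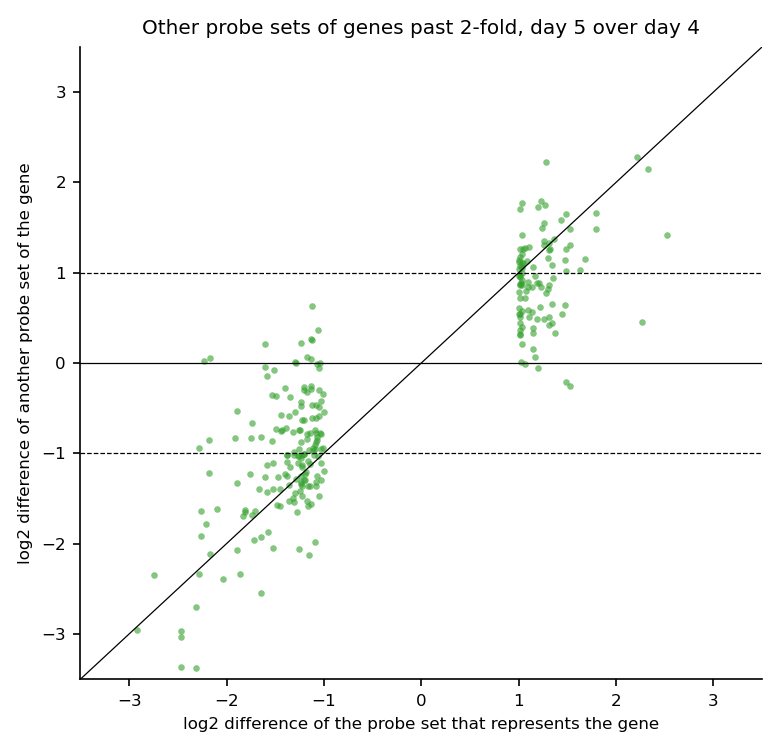
Log2 difference, day 5 over day 4, of each of 275 other probe sets (y axis) against that of the probe set that represents the gene (x axis), for genes past 2-fold, with 1 array a day. The solid diagonal marks equality and the dashed lines 2-fold. Most points share the sign of the x axis and many lie nearer to 0 than the diagonal.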

How the data were processed

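RNA of 4 samples, 1 for each of days 1, 4, 5 and 7, was measured on 1 Affymetrix mouse array each. Per the labels' protocols, biotinylated cRNA was made from 250.0 ng of total RNA extracted with Trizol and RNeasy. As deposited, each probe set has 1 linear intensity per array, for which the submitters' processing notes name GCOS 1.4 and MAS5. No scaling target was found in the sources used here. A mean trimmed by 2% at either end was 282 on day 4 and 296 on day 5, and the values were used unscaled. Precision is limited by having 1 array a day.

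Of 45101 probe sets 64 controls were left out. Of the other 45037, 34945 carried 1 symbol in GEO's platform annotation and were named, while 932 with several and 9160 with none were not. A RefSeq table (GRCm38.p6) held the gene numbers of 34741 of them and updated 0 symbols. The probe set with the highest mean floored log2 signal over the 4 arrays represented its gene. The 72 gene lists and the rule for named genes were chosen with earlier results of these data known. The rule took the 40 largest differences in each direction above the floor on both days, 15 in each direction above it on 1 day, up to 8 members of each list and those set against each other within a complex or family, genes with at least 3 probe sets all past 2-fold, and a fixed set of osteoclast and signalling genes. Of the listed genes 1261 were measured, 120 of them on more than 1 list. The alternatives were floors at the 25th, 60th and 75th percentiles (8.43, 68.9 and 254), no floor with 16 added, quantile normalization, median scaling, the mean over probe sets, another choice of the representing probe set, and no probe sets for several transcripts. The counting was tested on simulated data. Python 3.11.15 was used with pandas 2.3.3 and numpy 2.4.6, and figures were drawn with matplotlib 3.10.9.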

Additional observations from a re-analysis of the deposited data

How the results depend on the processing

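With 1 array a group no value has a replicate error, and no array could be left out. No paired analysis was possible because each group holds 1 array. Of the counts and list medians recomputed under 9 alternatives, those that moved by at least 0.29, the SD between probe sets, or by over 1.5 times did so with the floor, with 16 added in its place or without probe sets for several transcripts. The count of higher genes, 239, was 746 with a floor at the 25th percentile and 106 at the 75th, and the count of lower genes, 477, was 970 and 149. A lower floor admits more genes of low signal and a higher one fewer. The share of higher genes among all called was 33.4%, and 43.5% and 41.6% under these 2 floors, and 31.3% to 34.1% under the others. The median of MHC class II was -1.99 with the floor at the 75th percentile and -0.71 without probe sets for several transcripts. With the floor at the 75th percentile, that of the platelet list was -0.86 and that of mature B and plasma cells -0.91. In all, the medians of 12 of the 72 lists moved by at least 0.29 under some alternative, by up to 0.84. With the floor at the 75th percentile they included chemoattractant receptors (-0.86 to -0.26, 11 lower to 3), plasmacytoid dendritic cells (-1.12 to -0.33, 5 lower to 1), recombination and mismatch repair (1.00 to 0.61, 8 higher to 3) and integrins (-0.16 to -0.59). With it at the 60th the median of B cell precursors went from -0.58 to -1.27 and that of eosinophils, basophils and mast cells from -0.66 to -1.13. The medians of 11 lists changed sign under some alternative. For 10 of them the median was within 0.12 of 0: costimulation (-0.02, and 0.24 and 0.31 with the floor at the 25th and 60th percentiles), E2F and MYC factors (0.12, and -0.01 at the 60th), complement (0.06, and -0.08 with the mean over probe sets), alternative activation, antioxidants, BMP and TGF-beta, hypoxia, ketone bodies, podosomes, and RANKL and vitamin D. The other was T and NK cells (-0.32, and 0.01 with the floor at the 25th). Of 11272 values for 1323 listed or otherwise named genes, 10783 moved by less than 0.29, and 489 by more. Of the 277 of these genes past 2-fold, 0 changed sign, and those that came under 2-fold numbered 50 with the floor at the 60th percentile, 51 of 182 still measured at the 75th, 27 with 16 added, 22 with the mean over probe sets, 17 with quantile normalization, 5 with median scaling, 4 of 239 without probe sets for several transcripts, 1 with another representing probe set and 0 with the floor at the 25th. Genes short of 2-fold changed sign in 185 values. Under quantile normalization 7 of the 72 list medians changed sign and 1 under median scaling, and no list median moved by more than 0.15 and 0.06.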

Other observations

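Whether the differences sat in particular parts of the genome was also counted. Over the 20 chromosomes with at least 100 measured genes, the share of genes at least 2-fold higher ran from 0.971% to 3% and that of lower genes from 2.21% to 5.69%. Runs of at least 3 neighbouring measured protein-coding genes called in the same direction were found 4 times. Beside the chemokine run on chromosome 11 and the class II run on chromosome 17, they were Stfa2l1, Cd86 and Slc15a2 on chromosome 16 and Ethe1, Cd177 and Ceacam10 on chromosome 7, both lower on day 5.

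Among the 72 lists 14 had no member past 2-fold, 19 had more higher than lower members and 36 had more lower than higher ones.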
